A study of Mus musculus with 6 samples.

Results

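This account covers 6 genes that p53 switches on to halt the cell cycle or to limit its own activity: Cdkn1a, Ccng1, Btg2, Plk2, Mdm2 and Zmat3. They were chosen by gene symbol from genes already seen to differ between mutant and control presomitic mesoderm in these arrays, so their differences between the genotypes are given as description and not as a test. All probe sets annotated to exactly 1 of these symbols were taken, weak ones included, which gave 10 of 19551 probe sets that are not array controls, and 6 of 10290 genes. A probe set is a group of short oligonucleotides that together report transcripts of a gene, and probe sets of the same gene share that gene's RNA and are not replicates.

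Expression was measured in the presomitic mesoderm (PSM), the unsegmented tissue that gives rise to somites, of mouse embryos at embryonic day 8.75 on a C57BL6/6J background. Only the anterior PSM was taken, without the posterior end and the somites. The controls had the genotype R26R AC/AC, while the genotype of the mutants was R26R AC/AC;T-Cre, so both groups carried the AC allele at ROSA26 and only the mutants carried Cre. In T-Cre the recombinase is under regulatory sequence of T, also called Brachyury, a gene of the primitive streak and early mesoderm. AC stands, by general knowledge of the study and not by the labels, for A-CREB, a dominant-negative inhibitor of CREB family transcription factors. Each genotype had 3 arrays, each of 1 pool of 3 PSMs. No group carried T-Cre without the AC allele, so effects of Cre and of AC cannot be told apart. In tissue samples of this kind, fewer cells of a type and less RNA per cell cannot be told apart either.

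p53, the product of Trp53, is a transcription factor that is kept scarce in unstressed cells because the ubiquitin ligase Mdm2 marks it for breakdown. DNA damage and other stresses stabilise it, and it then binds paired copies of a short decamer near its target genes. Cdkn1a encodes p21, which inhibits cyclin-dependent kinases and stops cells before S phase. Btg2 is an antiproliferative member of the BTG/TOB family, and Plk2 is a polo-like kinase that responds to serum and to stress. Mdm2 and Ccng1, the gene of cyclin G1, act back on p53: Mdm2 degrades it, and cyclin G1 recruits a phosphatase to Mdm2. Zmat3, also called Wig1, encodes a zinc-finger protein that binds RNA. Trp53 itself was not analysed here.

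The promoter windows of 5 of the 6 genes were available from RefSeq (GRCm38.p6), each running from 250 bases before a gene start to 50 bases after it. Cdkn1a had 2 windows, and the others had 1 each. Zmat3 had no entry. Of these 3 are printed, because they hold the letters a reader would look for first in p53 targets measured in a CREB experiment. The first is the window at the upstream Cdkn1a start (chr17:29090729-29091028, plus strand), with a match to the paired p53 pattern in capitals. The other two are the windows of Btg2 (chr1:134079106-134079405, minus strand) and Plk2 (chr13:110394794-110395093, plus strand), with the cyclic AMP response element (CRE), the CREB binding sequence TGACGTCA, in capitals. All 3 are written 5′ to 3′ on the strand of the gene.
Cdkn1a: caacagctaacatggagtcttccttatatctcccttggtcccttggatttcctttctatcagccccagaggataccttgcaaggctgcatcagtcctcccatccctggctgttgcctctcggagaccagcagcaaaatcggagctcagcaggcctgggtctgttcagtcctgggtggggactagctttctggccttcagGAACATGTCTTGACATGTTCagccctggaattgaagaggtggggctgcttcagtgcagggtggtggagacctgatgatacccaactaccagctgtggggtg
Btg2: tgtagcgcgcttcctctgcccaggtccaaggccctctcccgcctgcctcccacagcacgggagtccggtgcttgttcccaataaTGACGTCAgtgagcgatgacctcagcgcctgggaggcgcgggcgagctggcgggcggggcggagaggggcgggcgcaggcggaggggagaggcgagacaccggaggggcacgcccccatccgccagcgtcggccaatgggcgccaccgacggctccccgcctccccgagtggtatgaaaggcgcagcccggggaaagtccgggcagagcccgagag
Plk2: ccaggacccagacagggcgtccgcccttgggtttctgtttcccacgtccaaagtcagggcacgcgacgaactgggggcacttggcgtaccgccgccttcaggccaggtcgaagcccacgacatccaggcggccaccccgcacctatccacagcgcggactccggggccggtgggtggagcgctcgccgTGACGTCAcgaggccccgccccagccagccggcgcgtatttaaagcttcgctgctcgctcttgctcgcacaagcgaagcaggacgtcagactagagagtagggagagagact

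The capitals in the Cdkn1a window are 2 p53 decamers without a spacer, with at most 1 mismatch in all, at chr17:29090928-29090947. They lie 51 to 32 bases before the upstream start and 2822 bases before the downstream start, and the 2 starts are 2790 bases apart. This paired pattern, which was chosen after the window was seen, was found in 18 of 32851 windows (0.0548%). A single decamer with 0 mismatches, which the paired match contains, was found in 8.36% of windows. The decamer is a palindromic pattern and was searched on both strands. Such a decamer was also present 185 to 176 bases before the Ccng1 start (GGGCAAGCCT) and 186 to 177 bases before the Mdm2 start (GAACTTGCCT), and a second one in the upstream Cdkn1a window (GGACTAGCTT). The CRE lies 166 to 159 bases before the Btg2 start and 62 to 55 bases before the Plk2 start. It was found in 1.79% of all windows, on both strands since the letters are a palindrome. Its shorter form TGACG, searched on both strands and contained in the CRE, was found in 20.8% of windows, and besides Btg2 and Plk2 it was present in the Mdm2 window. A match describes only the letters of a window, and binding at these positions was not tested.

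Mean signal of all 10 probe sets was higher in mutant than in control pools. The log2 differences of signal, mutant minus control, ran from 0.39 to 2.52 with a median of 0.88, against a median of 0.03 over all 19551 probe sets. Between the 5th and the 95th percentile of all probe sets the difference ran from −0.39 to 0.53, and of the 10 only 1 probe set of Btg2 and 1 of Mdm2 lay inside this range. With 1 pool left out, the median of the 10 was between 0.82 and 0.96. Differences and their standard errors (SE) come from limma on log2 of the signal plus 1, with 3 pools per genotype. A probe set was called where the adjusted p (Benjamini-Hochberg, over all probe sets) lay under 0.05. By this rule 6 of the 10 were called higher, from the 4 genes Cdkn1a, Ccng1, Plk2 and Zmat3, and 0 were called lower, while 0.240% of all probe sets were called higher. In 8 of the 10, all 3 mutant pools lay above all 3 control pools, which held for 10.9% of all probe sets. The genes were picked from this comparison, so nothing is read from these counts.

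**Figure D1:**
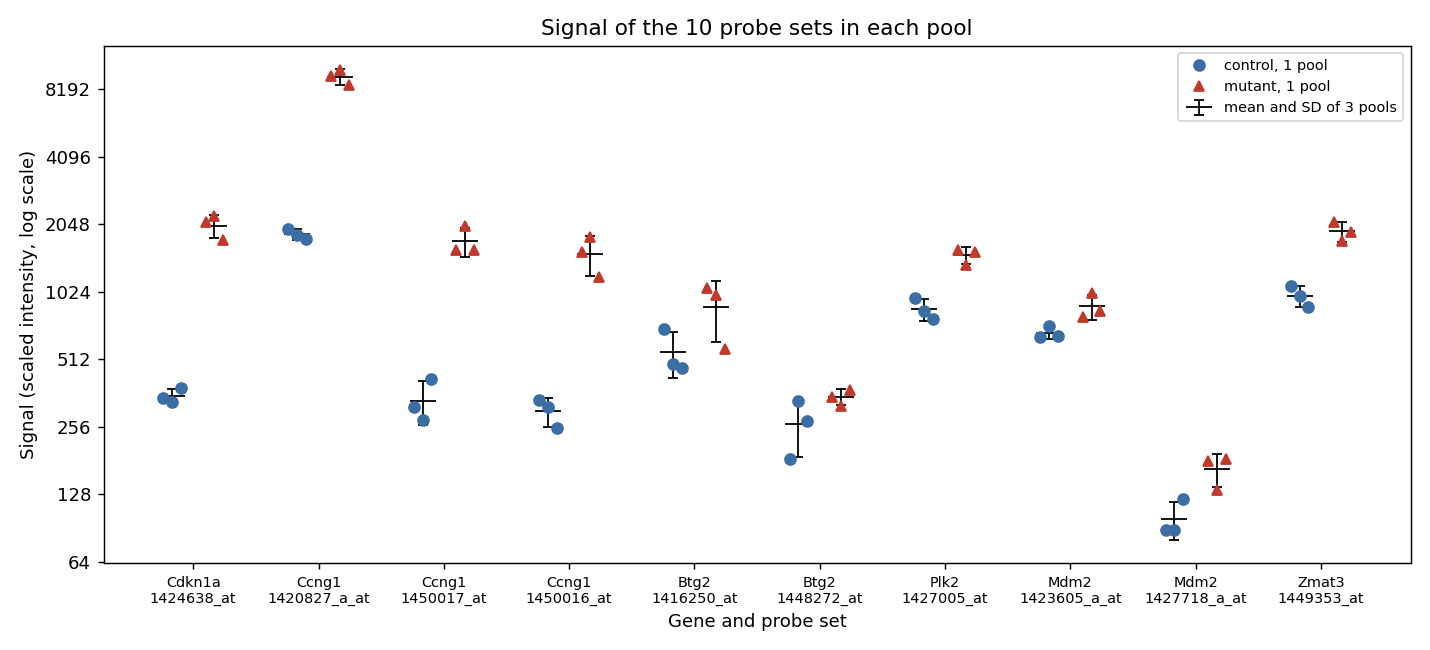
Signal of the 10 probe sets of the 6 genes in each pool, on a log axis, as blue circles (control) and red triangles (mutant), with the mean and SD of 3 pools. Both genotypes are far apart for Cdkn1a and the 3 Ccng1 probe sets, apart for Plk2, Zmat3 and Mdm2, and overlapping for the 2 Btg2 probe sets.

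Among the genes of arrest, Cdkn1a had the strongest difference. Its signal was 343, 330 and 380 in control pools 1, 2 and 3, and 2089, 2221 and 1751 in mutant pools 1, 2 and 3. The lowest mutant pool thus read 4.60 times the highest control pool. The mean was 351 ± 26 (SD, n = 3 pools) in control and 2021 ± 242 in mutant, a log2 difference of 2.52 (SE 0.14). By size of log2 difference this probe set was number 6 of the 19551.

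Btg2 was reported by 2 probe sets that did not order the pools alike. The brighter one, 1416250_at, read 700, 490 and 468 in the control pools and 1070, 994 and 571 in the mutant pools. Mutant 3 lay below control 1 there, so that 2 of 3 mutant pools exceeded all controls. The log2 difference was 0.64 (SE 0.25), which was not called. The dimmer one, 1448272_at, whose mean lay at the 36.2th percentile of all probe sets, read 184, 334 and 271 in control and 348, 318 and 375 in mutant. Its groups overlapped as well, through control 2 and mutant 2, and its log2 difference was 0.44 (SE 0.22), or 0.20 without control 1. Control 1 was the highest control pool on the first probe set and the lowest on the second.

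Plk2, the kinase gene, was separated between genotypes with a smaller shift than Cdkn1a. Its signal was 957, 839 and 772 in the control pools and 1580, 1345 and 1541 in the mutant pools. All mutant pools lay above all control pools, the lowest of them at 1.41 times the highest control. The means were 856 ± 93.7 and 1489 ± 126 (SD, n = 3), with a log2 difference of 0.80 (SE 0.13).

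Of the 2 feedback genes, Ccng1 had a much larger difference than Mdm2. The brightest Ccng1 probe set, 1420827_a_at, read 1955, 1830 and 1760 in control and 9349, 10023 and 8560 in mutant, and its lowest mutant pool was at 4.38 times its highest control. The second, 1450017_at, read 314, 275 and 417 in control and 1579, 2013 and 1577 in mutant. The third, 1450016_at, read 338, 314 and 252 in control and 1539, 1798 and 1193 in mutant. The log2 differences of the 3 were 2.33 (SE 0.10), 2.37 (SE 0.18) and 2.31 (SE 0.18). They thus lay within 0.06 of each other, less than any of their standard errors. Mutant 2 read highest and mutant 3 lowest on each of them, as for Cdkn1a.

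Mdm2, like Btg2, was reported by 2 probe sets of small difference. On the brighter one, 1423605_a_at, the control pools read 646, 721 and 648 and the mutant pools 792, 1010 and 842. The groups did not overlap, but the lowest mutant pool was only 1.10 times the highest control. The log2 difference was 0.39 (SE 0.14) and was not called. The other Mdm2 probe set, 1427718_a_at, was weak, at the 16.1th percentile of all probe sets, and read 88.5, 88.5 and 122 in control against 181, 134 and 184 in mutant. Its log2 difference was 0.74 (SE 0.22), also without overlap and not called. The 2 Mdm2 values were 0.35 apart, and both probe sets are of the kind (_a_at) that can report several transcripts of 1 gene.

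Zmat3, the RNA-binding member, read 1087, 979 and 873 in the control pools and 2103, 1718 and 1899 in the mutant pools. The lowest mutant pool was at 1.58 times the highest control. The means were 980 ± 107 and 1907 ± 193 (SD, n = 3), with a log2 difference of 0.96 (SE 0.13). Mutant 1 read highest and mutant 2 lowest, as for Plk2 and unlike Cdkn1a and Ccng1.

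**Figure D2:**
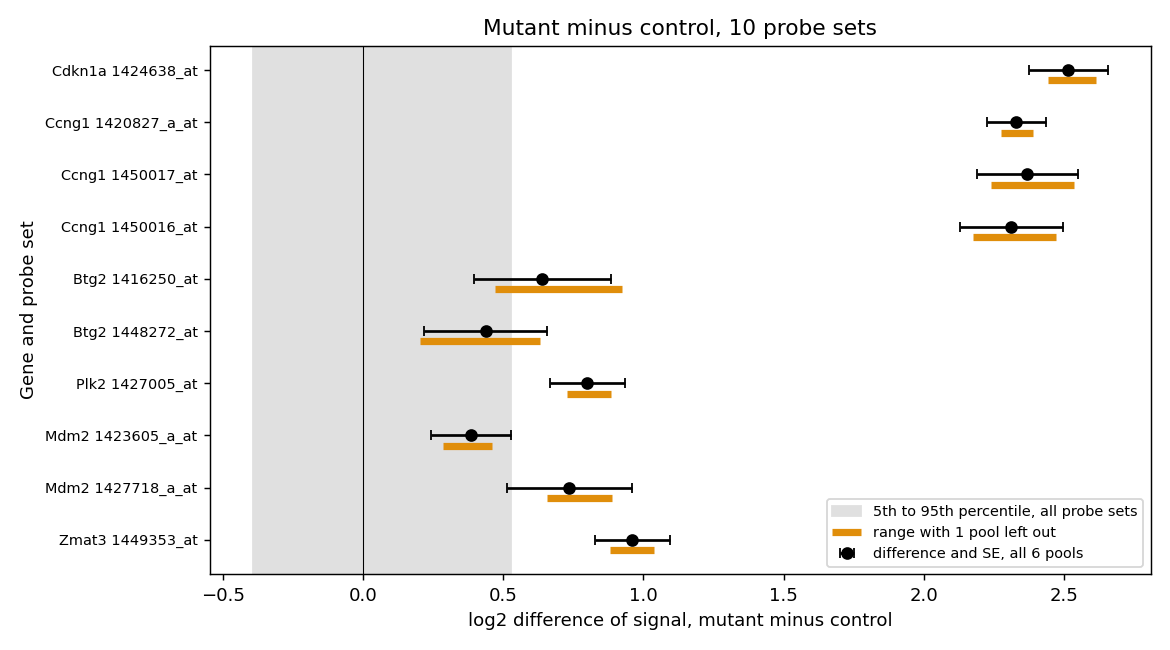
Log2 difference of signal, mutant minus control, of each of the 10 probe sets with its SE (black), the range of the difference with 1 pool left out (orange), and the 5th to 95th percentile of all probe sets (grey). Cdkn1a and Ccng1 lie above 2 in every such fit, and the other genes lie between 0.20 (Btg2 on 1448272_at without control 1) and 1.04 (Zmat3).

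Ordered by log2 difference on the brightest probe set of each gene, the sequence was Cdkn1a, Ccng1, Zmat3, Plk2, Btg2 and Mdm2. Neighbours in it were compared through the log2 ratio of their signals in each pool. The SE of such a comparison is from the variance of these ratios within the genotypes, not from limma. The pairs were formed after ordering by the same values. Cdkn1a and Ccng1 differed by 0.19 (SE 0.10), and their pool ratios overlapped between genotypes. Ccng1 and Zmat3 differed by 1.37 (SE 0.14) and Zmat3 and Plk2 by 0.16 (SE 0.04), in both cases without overlap. The last SE is an estimate from 3 pools per genotype, and limma gave Zmat3 and Plk2 an SE of 0.13 each. Plk2 and Btg2 differed by 0.16 (SE 0.33) and Btg2 and Mdm2 by 0.25 (SE 0.36), with overlap. The order of Cdkn1a and Ccng1, of Plk2 and Btg2, and of Btg2 and Mdm2 was not resolved by 3 pools per genotype. On its weaker probe set Mdm2 had 0.74, above the 0.64 of the brighter Btg2 probe set. Plk2 was not compared with Mdm2.

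The calls of Cdkn1a and of the 3 Ccng1 probe sets were kept when any 1 pool was left out. Zmat3 was not called without control 2, control 3 or mutant 1, and Plk2 was not called without any 1 of control 2, control 3 and the 3 mutant pools. Without an intensity trend in the variance, 4 probe sets were called, those of Cdkn1a and Ccng1.

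The arrays also differed in a measure of labelling. The ratio of the 3′ to the 5′ signal of dap, a spiked bacterial transcript, was 22.9, 23.8 and 19.6 on control 1, mutant 1 and mutant 2, and 12.2, 11.1 and 10.2 on control 2, control 3 and mutant 3. The labels do not name these sets as batches. Within the 3 arrays above a ratio of 15 and within the 3 below it, the difference was positive for all 10 probe sets, with medians of 0.83 and 0.99. Cdkn1a had 2.65 within the upper set and 2.30 within the lower one, and the brightest Ccng1 probe set had 2.31 and 2.25. For Zmat3 the values were 0.81 and 1.04, and for Plk2 they were 0.61 and 0.94. For Btg2 they were 0.56 and 0.25 on 1416250_at, where the arrays of the upper set read highest in each genotype, and 0.85 and 0.32 on 1448272_at. Mdm2 had 0.47 and 0.30 on 1423605_a_at and 0.81 and 0.82 on 1427718_a_at. Either set holds only 1 pool of the rarer genotype in it, so these values have no error.

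**Figure D3:**
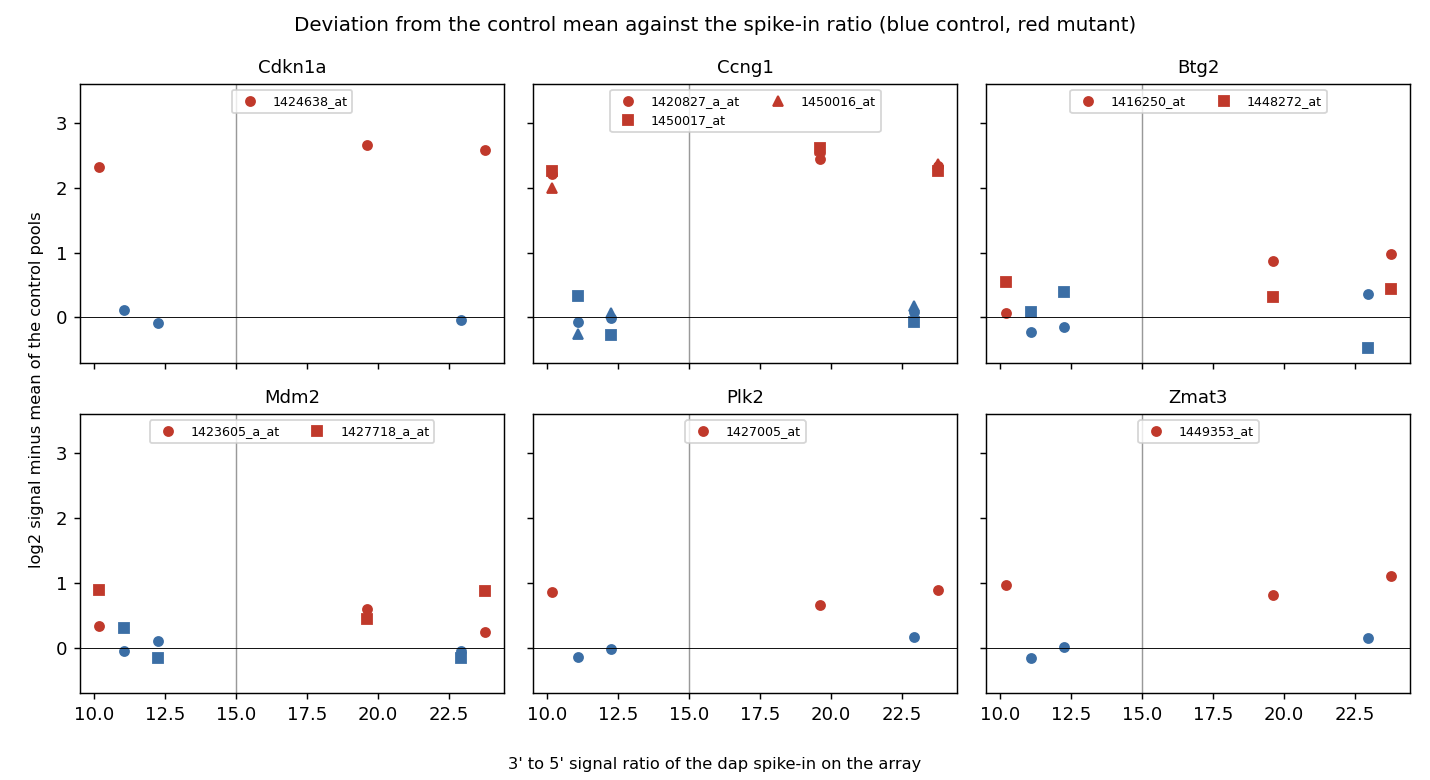
Log2 signal of each pool minus the mean of the 3 control pools, against the dap 3′ to 5′ ratio of its array, for the 6 genes (blue control, red mutant, 1 symbol shape per probe set), with a grey line at a ratio of 15. On each side of the line mutant pools lie above control pools for every probe set of the 6 genes, with only 1 pool of the rarer genotype per side. Btg2 on 1416250_at reads higher to the right of the line in both genotypes.

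Median signal was 491 to 535 and its 5th percentile 59.6 to 72.5 per array, and Pearson's r between arrays, across probe sets, was 0.975 to 0.991. For the lists that follow, each gene is represented by its brightest probe set. Of all 10290 genes, 0.340% were called higher and 0.466% lower, and 14.6% had an unadjusted p under 0.05 in either direction. Of 16 markers of PSM and forming somites 14 were measured. The lowest signal among them was 113, for Lfng, and no marker of this or the next lists was at 0. No threshold for detection was set, so these values do not test the tissue label. Summed over the PSM and somite markers the signal was 15319 to 18346 in control pools and 10379 to 14021 in mutant pools. Of their 14 differences 13 were negative, with 1 called in each direction and 8 at an unadjusted p under 0.05. Their median was −0.44 within the arrays of dap ratio above 15 and −0.20 within those below. Of 10 surface ectoderm markers, all had positive differences, 0 were called and 7 had an unadjusted p under 0.05, with sums of 13629 to 15974 in control and 20377 to 20917 in mutant. Of 8 endothelial markers, 7 had negative differences, 1 was called lower and 6 had an unadjusted p under 0.05. Their sums were 10525 to 11394 in control and 5980 to 8725 in mutant. For 10 gut endoderm markers the sums were 7532 to 11636 and 11351 to 25811, with 1 called in each direction. Of their differences 8 were positive, and 6 had an unadjusted p under 0.05. Ttr and Apoa1 read 11528 and 3230 in mutant 1, against at most 3458 and 395 in the other mutant pools. For 7 blood markers the sums were 32059 to 44561 and 44586 to 62561, with 0 called and 5 at an unadjusted p under 0.05. The median difference of the blood markers was 0.72 within the arrays of dap ratio above 15 and 0.03 within those below. Of 6 markers of lateral and intermediate mesoderm 3 were called lower, with sums of 5555 to 5875 and 3082 to 3700. The list was split in direction, with 3 negative and 3 positive differences, and 5 of the 6 had an unadjusted p under 0.05. The 6 neural tube markers, at 9407 to 11879 and 9855 to 13066, held 0 calls and 1 unadjusted p under 0.05, and of 3 notochord and floor plate markers, at 3118 to 3909 and 3714 to 5258, 1 was called higher. Their part in the values of the 6 genes was not tested.

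The other genes of the pathway were read from the same fit, in which the median log2 difference of all genes was 0.02. The lists were written with earlier results of these arrays known. Of 14 measured p53 targets of cell death, 3 were called higher, 0 lower and 11 were not called, with a median of 0.63 and 12 positive values. Of all genes, 0.340% were called higher. An unadjusted p under 0.05, in either direction, was reached by 12 of the 14, against 14.6% of all genes. Eda2r, a TNF receptor family member for ectodysplasin, rose from 148, 133 and 135 in the control pools to 779, 958 and 733 in the mutant pools (log2 difference 2.55, SE 0.16, adjusted p = 6.63e-05). Trp53inp1, a p53-induced nuclear protein, rose from 643, 571 and 509 to 2812, 3372 and 2378 (2.30, SE 0.16, adjusted p = 7.47e-05). Phlda3, a pleckstrin-homology protein that represses Akt, rose from 250, 268 and 286 to 1058, 844 and 1114 (1.90, SE 0.16, adjusted p = 0.000285). These 3 genes thus shifted by amounts of the size seen for Cdkn1a and Ccng1, without overlap between genotypes, and each kept its call without any 1 pool. Of the genes not called, Perp had 1.24 (SE 0.24, adjusted p = 0.0601), the BH3-only gene Pmaip1 0.99 (SE 0.19, adjusted p = 0.0601) and the apoptosome gene Apaf1 0.59 (SE 0.13, adjusted p = 0.0791). With a dap ratio above or below 15 set as a covariate, 9 genes of this list were called higher and 1 lower. The count called higher was 8 with array quality weights and 5 without control 1.

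Of 35 measured p53 targets of repair, metabolism and growth, limma called 0 in either direction, with a median of 0.17 and 27 positive values. An unadjusted p under 0.05 was reached by 11 of them, against 14.6% of all genes. The smallest p-values were those of the translesion polymerase gene Polk (0.93, SE 0.19, adjusted p = 0.0673), of Gadd45a, a stress sensor gene (0.84, SE 0.18, adjusted p = 0.0798), and of the lipase gene Abhd4 (0.64, SE 0.15, adjusted p = 0.0996). With array quality weights 6 of these were called higher, and with a dap ratio above or below 15 set as a covariate 5 were. In 21 of the 49 genes of both target lists, all mutant pools lay above all control pools (42.9%, against 11.8% of all genes).

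Among 18 measured regulators of p53, 0 were called in either direction, 2 had an unadjusted p under 0.05 (14.6% of all genes), and the median was −0.01. With array quality weights 1 was called higher, as with the dap covariate. Rchy1, a further ubiquitin ligase of p53, had the smallest p, with 0.44 (SE 0.12, adjusted p = 0.155). The deacetylase gene Sirt1 had −0.29 (SE 0.12, adjusted p = 0.343), and Mdm4, the partner of Mdm2 in restraining p53, had −0.23 (SE 0.13, adjusted p = 0.499). Relatives of the 6 genes were read as well, and 0 of 12 were called, 3 had an unadjusted p under 0.05 (14.6% of all genes), with a median of −0.15. Btg1, a relative of Btg2, had −0.34 (SE 0.11, adjusted p = 0.233), Zmat5 0.51 (SE 0.21, adjusted p = 0.339) and Cdkn1b, which encodes the p21 relative p27, −0.39 (SE 0.17, adjusted p = 0.360). Cdkn1b read 770, 634 and 539 in control pools and 541, 483 and 445 in mutant pools. Its groups overlapped, at control 3 and mutant 1.

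Genes of the cell cycle are given next, since p21 inhibits cyclin-dependent kinases. Of 22 cyclins, CDKs and regulators of G1, 0 were called and 2 had an unadjusted p under 0.05 (14.6% of all genes), with a median of −0.09. With array quality weights 2 were called lower, and with the dap covariate 1 was. Rbl1, the pocket protein p107, had −0.47 (SE 0.13, adjusted p = 0.153), E2f5 −0.47 (SE 0.13, adjusted p = 0.156) and Tfdp1, an E2F partner, −0.29 (SE 0.14, adjusted p = 0.432). Of 42 measured cell-cycle genes that p21 is known to lower through E2F and DREAM complexes, 1 was called lower and 0 higher. Of all genes, 0.466% were called lower. The median was −0.09 with 34 negative values, and 7 had an unadjusted p under 0.05 (14.6% of all genes). Within the arrays of dap ratio above 15 the median was −0.17, and within those below it was −0.01. The called gene was Rrm1, the large subunit of ribonucleotide reductase, which fell from 5751, 5549 and 5400 to 2491, 2771 and 2912 (log2 difference −1.03, SE 0.10, adjusted p = 0.00135). Its pools did not overlap, and its call was kept without any 1 pool. The securin gene Pttg1 had 0.57 (SE 0.14, adjusted p = 0.110), Cenpf −0.42 (SE 0.11, adjusted p = 0.130) and Aurkb −0.38 (SE 0.13, adjusted p = 0.263). With array quality weights 3 genes of this list were called lower and 1 higher, and with the dap covariate 1 was called in each direction.

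Btg2 and Plk2 also respond to serum and handling, as immediate early genes do, so that list is given beside them. Of 13 measured immediate early and heat shock genes 1 was called higher (0.340% of all genes) and 0 lower, with a median of −0.05. This was Egr1, a zinc-finger factor and a textbook CREB-responsive gene, which rose from 77.5, 62.1 and 56.8 to 399, 379 and 333 (log2 difference 2.49, SE 0.20, adjusted p = 0.000212). Its control signals lay near the 5th percentile of the arrays, and its pools did not overlap. Its call was kept without any 1 pool. A filter at the 40th percentile of mean signal removed Egr1 itself, so the count of 0 called under that filter says nothing about Egr1. The next smallest p-values were those of Ier2 (−0.24, SE 0.14, adjusted p = 0.505), Klf6 (−0.23, SE 0.18, adjusted p = 0.647) and Klf4 (0.22, SE 0.23, adjusted p = 0.738). The part of handling in the values of Btg2 and Plk2 was not tested.

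**Figure D4:**
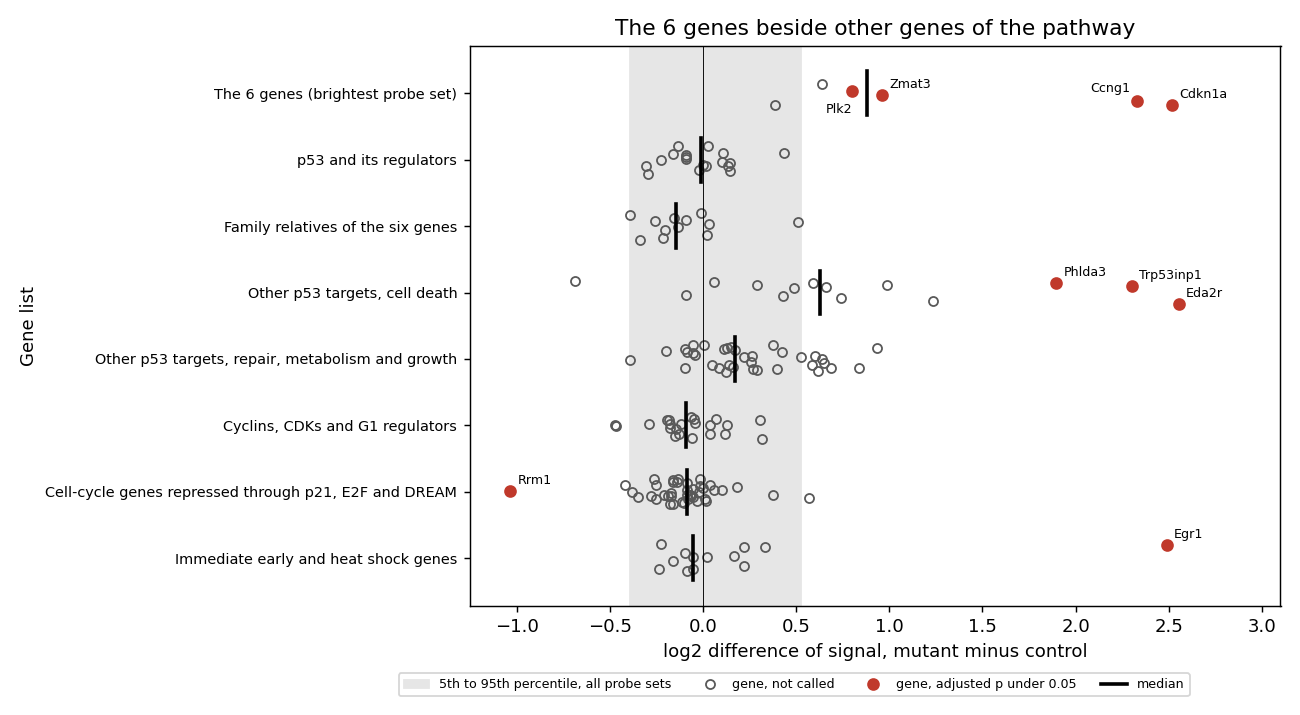
Log2 difference of signal, mutant minus control, for the 6 genes and for each measured gene of 7 further lists, with filled points where adjusted p was under 0.05, black bars for list medians and the 5th to 95th percentile of all probe sets in grey. Eda2r, Trp53inp1 and Phlda3 lie beside Cdkn1a and Ccng1, while the regulators, relatives and cyclins lie around 0.

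The genes whose pattern over the 6 pools was most like that of the 6 together were found by Pearson's r with the mean of their standardised log2 profiles, among 7239 genes above the 40th percentile of mean signal. The values are descriptive, since any gene that separates the genotypes cleanly scores high. The members' own brightest probe sets, each of which is part of that mean, had r from 0.81 (Btg2) to 0.99 (Ccng1). The 8 closest genes were Mrpl1 (r = 0.998), Trp53inp1 (0.997), Cdh6 (0.993), Hacd2 (0.988), Ifrd1 (0.985), Cenpu (0.984), Aen (0.984) and Mrps25 (0.984). Of these, Aen, an apoptosis nuclease, and Trp53inp1 are on the list of cell death targets. Mrpl1 and Mrps25 encode mitochondrial ribosomal proteins, Cdh6 a cadherin and Cenpu a centromere protein. Their differences were mostly small: Mrpl1 read 834, 814 and 791 in control pools and 1113, 1146 and 1063 in mutant pools, a log2 difference of 0.45 (SE 0.12), and Ifrd1 had 0.27 (SE 0.10). Cdh6 read 455, 417 and 342 against 851, 883 and 702, a log2 difference of 1.00 (SE 0.16).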

How the data were processed

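Total RNA of each pool was purified with a PicoPure kit, labelled with biotin by the 3′ IVT Express kit and hybridised to Affymetrix mouse arrays, per the labels' protocols. The authors deposited 1 scaled intensity per probe set and array (the signal used here), made with MAS5 and Affymetrix Expression Console per the submitters' processing notes. Versions, the scaling target and the rule for the probe sets kept are not given in the sources used here. MAS5 signals are linear and noisy when low, and their precision is limited by the number of arrays.

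Of 19606 probe sets, 55 array controls were left out. The platform annotation gave 1 symbol for 17348 of the other 19551, several for 494 and none for 1709. Values were taken as log2(signal + 1) without a filter and compared with limma 3.58.1 (R 4.3.3; lmFit, eBayes with an intensity trend, 2-sided), and p-values were adjusted by Benjamini-Hochberg over all 19551. A gene was represented by its probe set of highest mean log2 signal. SD is over 3 pools on the signal scale. The 6 genes and all lists were chosen with earlier results of these data known, as was the split of the arrays by the dap ratio. The genes named are the 6, up to 4 called genes per direction and 3 uncalled genes of smallest p in each pathway list, and the 8 of most similar pattern, and calls of marker lists are counted. Of the markers, Lfng, Ttr and Apoa1 are named for their signal alone. The labels call the pools biological replicates. Alternatives were other normalisations, offsets, a filter, a threshold, array weights, blocks, other choices of probe sets and each pool left out. The procedure was tested on simulated data. Promoter windows came from RefSeq (GRCm38.p6), and no coordinates were taken for probe sets.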

Additional observations from a re-analysis of the deposited data

How the results depend on the processing

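Over all alternatives and pools left out, the 185 differences of the 10 probe sets of the 6 genes were all positive. Of these, 180 differed from the main value by less than the spread between replicates, and 5 by more. The filter, the threshold, the intensity trend, the replicate block and the removal of probe sets cannot change a difference, but are counted. Because the genes were picked from this comparison, nothing is read from these counts. The count of the 10 probe sets called higher, 6, ran from 4 to 7. The counts over all probe sets moved more. From 47 higher and 62 lower, they became 134 and 167 at an adjusted p under 0.1, 25 and 22 without an intensity trend, 469 and 433 with array quality weights, and 341 and 339 with the dap ratio as a block. A filter at the 40th percentile of mean signal left 29 higher. With 1 pool left out the counts were 19 to 100 higher and 14 to 106 lower. The cause of these changes was not tested.

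Of the targets of cell death, 3 higher became 7 at an adjusted p under 0.1, 5 without _s_at, _x_at and _a_at probe sets, 5 with median centring, 6 with probe sets averaged per gene, 9 with the dap block (where 1 was also called lower), 8 with array weights and 3 to 5 with 1 pool left out. Of the targets of repair, metabolism and growth, 0 higher became 3, 4 with probe sets averaged per gene, 5 with the dap block, 6 with array weights and 0 to 1 with 1 pool left out. Of the cell-cycle genes, 1 lower became 3 with array weights, and 0 higher became 1 with array weights and with the dap block. Of the cyclins, 0 lower became 2 with array weights and 1 with the dap block, and of the regulators of p53, 0 higher became 1 with either.

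The replicate numbers did not pair the pools. Residuals of equal numbers correlated at 0.18, −0.27 and 0.27, and 2 of 6 arrays correlated best with their own number. With the replicate number as a block, 113 probe sets were called higher and 105 lower, 5 targets of cell death and 2 of repair, metabolism and growth were higher, and 6 probe sets of the 6 genes were called.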
